A study of Homo sapiens with 18 samples.

Results

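The AP-1 and EGR factors examined here were 10 genes: FOS, FOSB, FOSL1, FOSL2, JUN, JUNB, JUND, EGR1, EGR2 and EGR3. They were taken as the rows of the deposited table whose Ensembl gene IDs carry these symbols. The rows were matched by symbol and not by value, but the list was chosen with earlier results of these data known. All 10 were found among the 40184 gene IDs of the table, and all 10 reached at least 1 CPM in at least 3 of the 18 libraries. CPM is the read count of a gene scaled to a fixed library size. RNA-seq libraries were made from 3 human acute myeloid leukaemia cell lines, each exposed for 24 h to the vehicle DMSO or to RMC-4550 at 500 nM, with 3 biological replicates in each of the 6 groups. RMC-4550 is an allosteric inhibitor of SHP2, the phosphatase encoded by PTPN11, through which receptor tyrosine kinases activate RAS and ERK. Molm-14 and MV4-11 were labelled FLT3-ITD, an internal tandem duplication in the receptor FLT3, and SKNO-1 was labelled KIT N822K, a substitution in the receptor KIT. All 6 groups were grown in RPMI with fetal bovine serum. SKNO-1 alone also received human GM-CSF at 10 ng/mL, in both of its groups, so the line, its genotype and the growth factor cannot be told apart.

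AP-1 is a dimer of basic leucine zipper proteins. FOS family proteins pair with JUN family proteins, and JUN proteins also pair with each other. EGR proteins are zinc finger factors that bind GC-rich sites. In many cells the FOS, FOSB, JUN, JUNB and EGR genes are immediate early genes, whose transcription rises briefly when ERK phosphorylates the ternary complex factors that sit beside SRF on their promoters. FOSL1 transcription and FRA1 protein stability are known to follow sustained ERK activity. JUND is known for its steady expression. In myeloid cells, EGR1, EGR2 and JUN family members are known for roles in monocyte and macrophage maturation.

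Read totals lay between 17434810 and 19959917 per library. In 4 libraries mitochondrial genes took 10.5% to 15.02% of the reads, against 5.07% to 7.02% in the other 14. These were replicate 2 of Molm-14 with RMC-4550, replicates 1 and 3 of MV4-11 with DMSO, and replicate 1 of MV4-11 with RMC-4550. Results for Molm-14 and MV4-11 are therefore given with and without these libraries. Without them MV4-11 has 1 library with DMSO, so its calls in that fit rest on the spread of the other groups. The 9 myeloid markers examined were all detected, with a summed level of 1380 to 1739 CPM per library with DMSO and 1703 to 2281 CPM with RMC-4550. Within each line the summed level of the treated libraries was above that of the controls, and CSF1R rose in all 3 lines (by 1.06 on the log2 scale in SKNO-1 and by up to 2.47 in Molm-14). Its list did not move one way, with 3 of 8 tested higher and 1 lower in Molm-14 (MPO, log2 change -1.36). In MV4-11 2 of 9 were higher, and in SKNO-1 3 of 9. Of all genes tested, 21.5% were called higher in Molm-14 (25.2% lower), 5.85% in MV4-11 and 10.8% in SKNO-1. The t(8;21) marker RUNX1T1 stood at 13.8 CPM in the SKNO-1 controls and had at most 1 read in any library of the other lines. HOXA9, HOXA10 and MEIS1, which mark KMT2A-rearranged leukaemia, summed to 203 to 216 CPM in SKNO-1 and to 253 to 342 CPM in Molm-14 and MV4-11. With DMSO, HOXA9 stood at 53.7 CPM in SKNO-1, 137 in Molm-14 and 92.5 in MV4-11. HOXA10 stood at 31.9, 67.5 and 46.5 CPM in that order. MEIS1 did not go the same way, at 119, 90.7 and 125 CPM. T cell markers were at or near 0, with a summed level of at most 0.0928 CPM. The largest summed levels were 19.1 CPM for 4 B cell markers, 3.43 CPM for 4 erythroid, 26.6 CPM for 3 platelet and 17.6 CPM for 4 fibroblast markers, and 0 of their tested genes were called with RMC-4550 by limma in any line, while 1 had an unadjusted p under 0.05 and voom weights called 1, ITGA2B in SKNO-1. Of 4 epithelial markers only KRT8 and KRT18 had over 3 reads in any library, with a sum of 17.3 to 48.6 CPM, and KRT8 rose in Molm-14 and SKNO-1 (log2 change 0.99 and 0.54) and KRT18 in Molm-14 (0.54). The part of these marker changes in the results below was not tested. Among the 9261 genes at 10 CPM or more in the Molm-14 controls, 0 were below 1% of that level in MV4-11, and 69 were in SKNO-1. In the other direction, 61 of 9416 genes of MV4-11 were below 1% of their level in Molm-14. What part, if any, RNA of one line had in the levels of another was not tested.

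The upstream 250 bases of 3 members are shown because each holds a match to a site through which ERK or cAMP signalling is known to reach such genes. The sequences were taken from RefSeq (GRCh38.p14). Windows of 8 of the 10 members were scanned, and FOSL1 and EGR3 were not scanned. They were chosen after the matches had been seen. Capitals mark matches on either strand to the CArG box, the SRF site, and to TGACGT, the core of the CRE and ATF site. Of the printed windows, those of FOSB and JUND held TGACGT only. The EGR1 window is chr5:138465229-138465478 on the plus strand, the FOSB window is chr19:45467746-45467995 on the plus strand, and the JUND window is chr19:18281623-18281872 on the minus strand.
EGR1: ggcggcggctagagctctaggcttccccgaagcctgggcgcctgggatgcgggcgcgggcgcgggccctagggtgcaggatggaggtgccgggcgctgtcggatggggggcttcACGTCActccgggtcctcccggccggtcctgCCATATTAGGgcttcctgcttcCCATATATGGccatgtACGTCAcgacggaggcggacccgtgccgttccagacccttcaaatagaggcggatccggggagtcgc
FOSB: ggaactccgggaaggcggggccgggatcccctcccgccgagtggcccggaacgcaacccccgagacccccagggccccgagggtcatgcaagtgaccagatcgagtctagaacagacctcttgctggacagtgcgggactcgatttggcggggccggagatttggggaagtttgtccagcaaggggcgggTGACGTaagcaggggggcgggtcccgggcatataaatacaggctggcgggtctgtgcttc
JUND: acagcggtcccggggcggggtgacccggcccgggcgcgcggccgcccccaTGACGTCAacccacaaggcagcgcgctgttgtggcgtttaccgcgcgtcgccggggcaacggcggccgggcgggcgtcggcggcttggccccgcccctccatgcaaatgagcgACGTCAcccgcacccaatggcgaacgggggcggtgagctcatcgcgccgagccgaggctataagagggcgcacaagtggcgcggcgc
The EGR1 window held 2 CArG boxes, 105 and 83 bases before the start, and TGACGT 136 and 67 bases before it. The only other CArG box in the 10 windows scanned lay in 1 of 3 EGR2 windows, 71 bases before that start. Bases further upstream than 250 were not scanned for any member. The CArG box occurred in 1.16% of 35116 promoter windows of this length. TGACGT occurred in 6 of the 10 windows of the members, 1 each for FOS, FOSB, FOSL2, JUND, EGR1 and EGR2, against 7.10% of all windows. In JUND, matches on both strands overlapped 200 and 198 bases before the start, and a further match lay 87 bases before it. The AP-1 site TGANTCA was in 0 of the 10, against 6.57% of all windows. Such matches describe these letters in this window and are not measured binding sites.

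With DMSO, JUND was the most abundant member transcript per length in each line, and EGR2 and EGR3 were the least abundant. Per length, that is in CPM per kb of the longest coding transcript in GENCODE 29, the mean JUND level was 323 in MV4-11, 266 in Molm-14 and 184 in SKNO-1. FOS, the prototype partner of JUN, stood at 222, 79.4 and 165 CPM per kb in the same order, and JUNB, a JUN family member with weaker activation, at 139, 101 and 84.9. In Molm-14 the order continued with FOSL2 (40.2 CPM per kb), EGR1 (29.1), FOSL1 (11.1), JUN (7.15), FOSB (2.13), EGR2 (0.569) and EGR3 (0.117), and no neighbours in that order overlapped between libraries. In MV4-11 it continued with EGR1 (40.7 CPM per kb), FOSB (30.1), FOSL2 (24.7), JUN (20.3), FOSL1 (15.1), EGR2 (0.797) and EGR3 (0.387). There the libraries overlapped between JUND and FOS, FOSB and FOSL2, FOSL2 and JUN, and JUN and FOSL1. In SKNO-1 the order was FOSB (40.8 CPM per kb), EGR1 (28.7), FOSL2 (19.7), JUN (13.1), FOSL1 (8.52), EGR3 (0.510) and EGR2 (0.370), with no overlap between neighbours. A gene that mainly uses a shorter transcript has a higher level per length than given here.

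**Figure D1:**
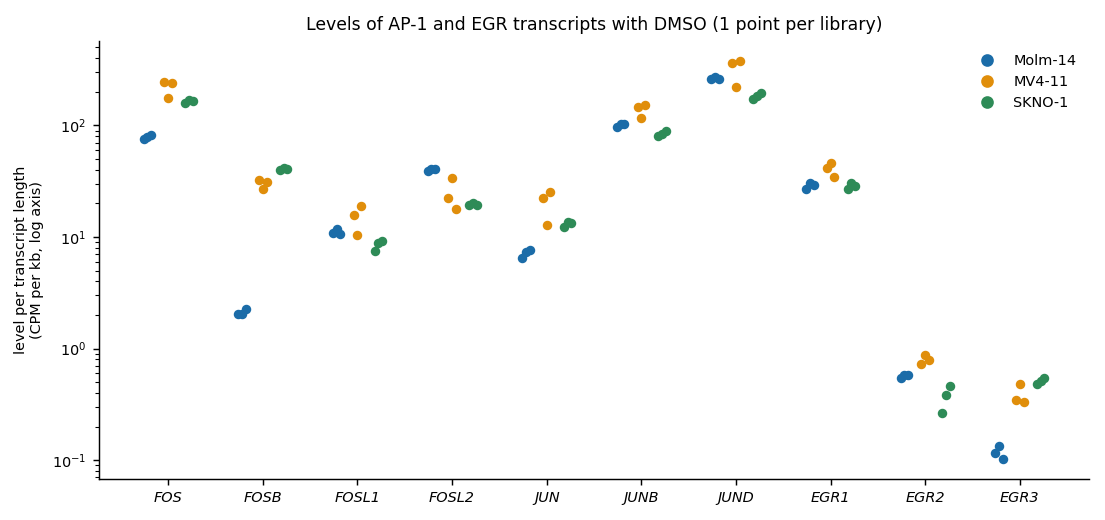
Level of each member with DMSO, in CPM per kb of the longest coding transcript on a log axis, with 1 point for each of the 3 libraries of Molm-14, MV4-11 and SKNO-1. JUND is at the top in each line and EGR2 and EGR3 at the bottom, and FOSB in Molm-14 (2.13 CPM per kb on average) lies far below FOSB in the other lines (30.1 and 40.8).

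With DMSO, FOSB was the member that differed most from Molm-14 in both other lines. FOSB, a FOS family member with a long-lived splice form, was at 7.78, 7.79 and 8.58 CPM in the Molm-14 replicates. It was at 123, 102 and 117 CPM in MV4-11 and at 151, 157 and 153 CPM in SKNO-1. All libraries of one line lay apart from all libraries of the others. The level in MV4-11 was 14.1-fold that in Molm-14 (log2 difference 3.81, SE 0.10, adjusted p = 7.3e-14), and the level in SKNO-1 was 19.1-fold (log2 difference 4.25, SE 0.10, adjusted p = 8.7e-15). FOSB made up 1.60% ± 0.0609 (SD, n = 3) of the summed FOS family level per length in Molm-14, against 10.4% ± 0.398 in MV4-11 and 17.4% ± 0.299 in SKNO-1.

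The limma fit over all genes estimated 1 spread per gene over all 6 groups. Its SEs and confidence intervals therefore do not show the spread within a single line. A member was called at a Benjamini-Hochberg adjusted p under 0.05 in that fit. By this rule 7 of 10 members differed between MV4-11 and Molm-14 with DMSO, against 53.4% of all genes tested. The 6 higher in MV4-11, against 26% of all genes, were FOS (log2 difference 1.47), FOSB, JUN (1.45), JUNB (0.44), EGR1 (0.47) and EGR3 (1.66). The 1 lower, against 27.4%, was FOSL2 (-0.75). Between SKNO-1 and Molm-14, 7 of 10 differed, against 64.7% of all genes. Here 4 were higher in SKNO-1, against 32.4%, namely FOS (1.06), FOSB, JUN (0.88) and EGR3 (2.07). FOSL2 (-1.03), JUNB (-0.26) and EGR2 (-0.65) were lower, against 32.4% called lower. Between SKNO-1 and MV4-11, 8 of 10 differed, against 41.1% of all genes. FOSB (0.44) was the 1 higher in SKNO-1, against 19.2%. The 7 lower, against 21.9%, were FOS (-0.41), FOSL1 (-0.79), JUN (-0.57), JUNB (-0.70), JUND (-0.77), EGR1 (-0.50) and EGR2 (-1.12). The JUNB difference between SKNO-1 and Molm-14 was not called without a filter on low values (adjusted p = 0.088) or with median-ratio scaling (0.11). The 3 comparisons share their DMSO libraries. Between SKNO-1 and Molm-14 the share of members was near that of all genes.

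The MV4-11 part of these differences moved with its DMSO libraries. In the 2 libraries with a high mitochondrial share JUN was at 79.3 and 90.4 CPM, and in the other at 45.5 CPM, within the SKNO-1 range of 43.5 to 48.3. Without the libraries over 10% mitochondrial reads, the log2 difference of JUN between SKNO-1 and MV4-11 was 0.03. That JUN call was also lost with median-ratio scaling (adjusted p = 0.064), without a filter (0.063) and with the replicate number as a block (0.055). JUND was at 683 and 710 CPM in those 2 libraries and at 409 CPM in the other. Its log2 difference between MV4-11 and Molm-14 was 0.24 (adjusted p = 0.40) with all libraries and -0.27 without those over 10% mitochondrial reads. In the same fit the log2 differences between SKNO-1 and MV4-11 were -0.11 for FOS, -0.30 for FOSL1 and -0.25 for JUND, each smaller in size than with all libraries. They were -0.46 for JUNB, -0.68 for EGR1, -1.27 for EGR2 and 0.60 for FOSB. That fit leaves 1 MV4-11 library with DMSO, so calls in it rest on the spread of the other groups. The calls between SKNO-1 and MV4-11 fell from 8 to 3 without replicate 1 and to 4 without replicate 3 of MV4-11 with DMSO. Counts over all genes in those fits are not given, so this fall cannot be set beside a background.

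**Figure D2:**
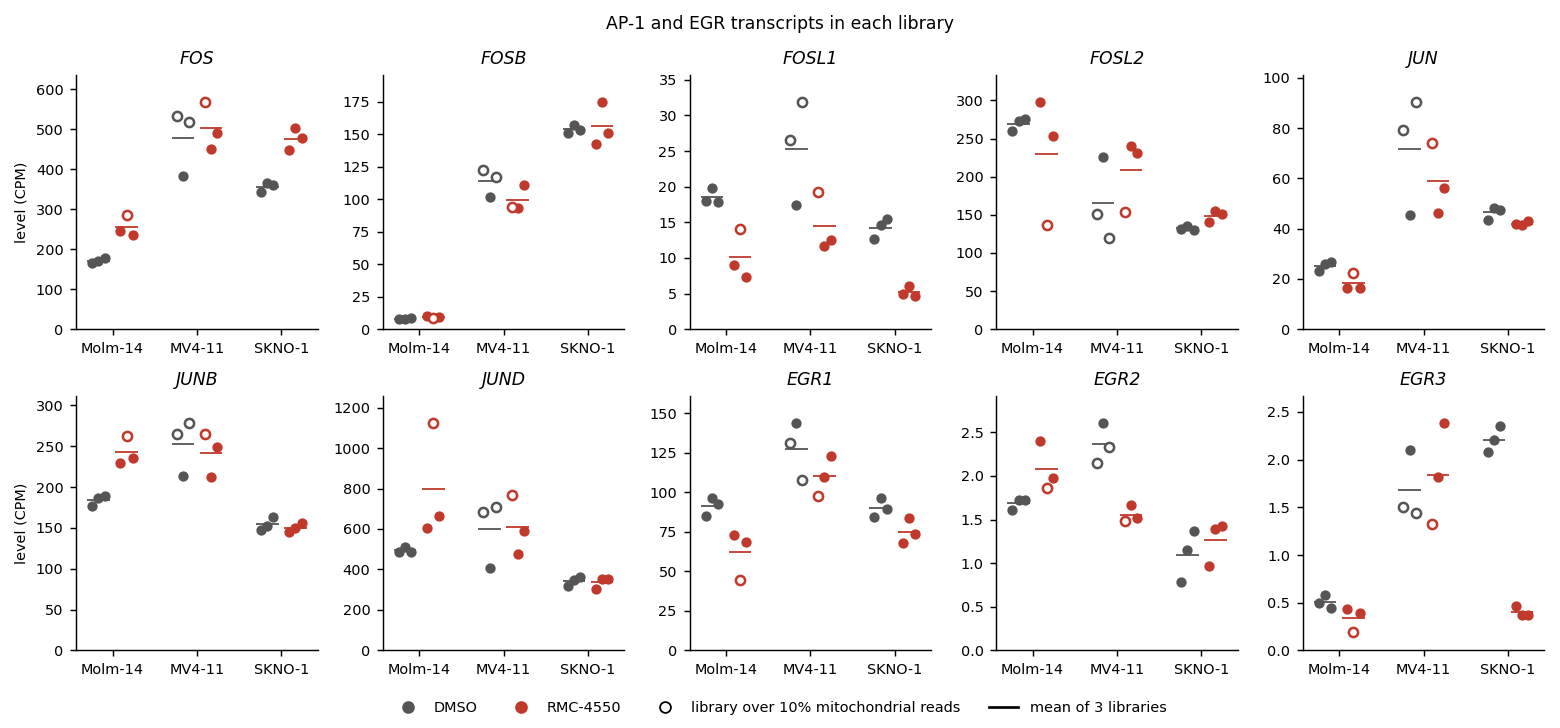
Level in CPM (vertical axes from 0) of each member in every library, by line, with DMSO in grey and RMC-4550 in red; bars are means of 3 libraries and open points mark the 4 libraries over 10% mitochondrial reads. FOSL1 lies lower with RMC-4550 in Molm-14 and SKNO-1, and EGR3 falls from 2.21 to 0.401 CPM on average in SKNO-1.

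FOSL1 fell with RMC-4550 in all 3 lines, and it was the only member called in all 3. FOSL1 encodes FRA1, a FOS family protein without the activation domain of FOS. It lies on chromosome 11 (GRCh38, chr11:65892049-65900573, minus strand). In SKNO-1 it was at 12.6, 14.6 and 15.4 CPM with DMSO and at 5.00, 6.12 and 4.69 CPM with RMC-4550. The groups did not overlap, and the level was 2.70-fold lower (log2 change -1.43, SE 0.25, adjusted p = 0.00040). In Molm-14 it was at 18.1, 19.8 and 17.8 CPM with DMSO and at 8.96, 14.1 and 7.35 CPM with the inhibitor. The highest treated library, replicate 2, was the one with 15.02% mitochondrial reads. The level was 1.90-fold lower (log2 change -0.92, SE 0.25, adjusted p = 0.0059), and the log2 change was -1.19 without replicate 2.

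In MV4-11, FOSL1 was at 26.5, 17.4 and 31.9 CPM with DMSO and at 19.2, 11.6 and 12.6 CPM with RMC-4550. Here the groups overlapped, with replicate 2 of DMSO below replicate 1 of RMC-4550. The level was 1.73-fold lower (log2 change -0.79, SE 0.25, adjusted p = 0.041). Within the libraries under 10% mitochondrial reads (1 DMSO, 2 RMC-4550) the log2 change was -0.53, and within those over 10% (2 DMSO, 1 RMC-4550) it was -0.60. The call was lost without replicate 1 or 3 of DMSO (log2 change -0.74 and -0.60) and without replicate 2 or 3 of RMC-4550 (-0.66 and -0.71). The FOSL1 call in MV4-11 was also lost with median-ratio scaling (adjusted p = 0.062), without a filter on low values (0.072), with the line fitted alone (0.18) and with the replicate number as a block (0.069). As a share of the summed FOS family level per length, FOSL1 went from 8.38% ± 0.539 to 3.76% ± 1.25 in Molm-14, from 5.13% ± 1.01 to 2.87% ± 0.604 in MV4-11 and from 3.64% ± 0.276 to 1.096% ± 0.110 in SKNO-1 (SD, n = 3).

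FOS rose in Molm-14 and SKNO-1. The gene lies at chr14:75278774-75282230 on the plus strand. In Molm-14 it was at 165, 171 and 179 CPM with DMSO and at 247, 284 and 235 CPM with RMC-4550. In SKNO-1 it was at 342, 366 and 360 CPM with DMSO and at 447, 504 and 479 CPM with RMC-4550. The groups did not overlap in either line. The rise was 1.49-fold in Molm-14 (log2 change 0.57, SE 0.12, adjusted p = 0.0011) and 1.34-fold in SKNO-1 (log2 change 0.42, SE 0.12, adjusted p = 0.016). The call in SKNO-1 was lost without replicate 1 of DMSO (log2 change 0.39, adjusted p = 0.059) or replicate 2 of RMC-4550 (0.38, adjusted p = 0.064). Bulk values cannot tell more FOS RNA per cell from more cells that express it, and the same holds for each gene below.

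In MV4-11, FOS was at 534, 383 and 517 CPM with DMSO and at 568, 452 and 490 CPM with RMC-4550. The lowest library was again the DMSO replicate with the low mitochondrial share, and the groups overlapped. The log2 change was 0.08 (95% confidence interval -0.17 to 0.34, adjusted p = 0.72). It was 0.30 within the libraries under 10% mitochondrial reads and 0.11 within those over 10%. Without the libraries over 10%, the call was made (adjusted p = 0.012), with a lone DMSO library that is assumed to vary like the other groups.

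FOSB and FOSL2 were not called in any line in the fit over all libraries. The FOSB gene lies at chr19:45467995-45475179 (plus strand) and FOSL2, which encodes FRA2, at chr2:28392448-28417312 (plus strand). The log2 change of FOSB was 0.22 in Molm-14 (95% confidence interval 0.003 to 0.45, adjusted p = 0.089), -0.19 in MV4-11 (-0.41 to 0.03) and 0.02 in SKNO-1 (-0.21 to 0.24). Without replicate 2 of RMC-4550, the Molm-14 change was 0.30 and called (adjusted p = 0.041). FOSB was also called there with median-ratio scaling (adjusted p = 0.041) and with a covariate for the mitochondrial share (0.036). It was not called with log2(CPM + 1), without a filter, with the line fitted alone, with the replicate block or with voom weights. FOSL2 was at 260, 274 and 275 CPM in Molm-14 with DMSO and at 298, 137 and 254 CPM with RMC-4550. The low value was again replicate 2, so the log2 change of -0.31 (adjusted p = 0.33) became 0.03 without it. FOSL2 in SKNO-1 had a log2 change of 0.17 (adjusted p = 0.67), and the groups did not overlap there (130 to 136 CPM against 140 to 155 CPM). That FOSL2 change was called with SKNO-1 fitted alone (adjusted p = 0.016), with a covariate for the mitochondrial share (0.0043) and without the libraries over 10% mitochondrial reads (0.019).

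With all libraries in the fit, JUNB and JUND were called in Molm-14 and in neither of the other lines. JUNB (chr19:12791496-12793315, plus strand) was at 177, 187 and 189 CPM with DMSO and at 230, 263 and 236 CPM with RMC-4550 in Molm-14. Every treated library was above every control, and the rise was 1.32-fold (log2 change 0.40, SE 0.10, adjusted p = 0.0053). In MV4-11 the JUNB libraries ran from 213 to 279 CPM with DMSO and from 212 to 265 CPM with the inhibitor, with a log2 change of -0.06 (95% confidence interval -0.28 to 0.16). In SKNO-1 they ran from 147 to 164 CPM and from 145 to 156 CPM, with a log2 change of -0.04 (-0.26 to 0.18). In both lines the groups overlapped.

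JUND, a JUN family member that can restrain proliferation, lies at chr19:18279760-18281622 on the minus strand. In Molm-14 it was at 488, 509 and 488 CPM with DMSO and at 603, 1124 and 663 CPM with RMC-4550. The groups did not overlap, but replicate 2 of RMC-4550 was far above the rest. The rise was 1.55-fold (log2 change 0.63, SE 0.23, adjusted p = 0.033). Without that replicate the log2 change was 0.35 and the call was lost (adjusted p = 0.18). The call was also lost without any 1 of the DMSO replicates (log2 change 0.62 to 0.65), without a filter (adjusted p = 0.055), with the line fitted alone (0.071) and with the replicate number as a block (0.052). With all 4 libraries over 10% mitochondrial reads left out of the fit, the change of 0.35 was called. In SKNO-1 the log2 change of JUND was -0.03 (95% confidence interval -0.52 to 0.45), and in MV4-11 it was 0.04 (-0.45 to 0.52). Without the libraries over 10% mitochondrial reads, the JUND change in MV4-11 was 0.37 and called (adjusted p = 0.024), with a lone DMSO library. With a covariate for the mitochondrial share it was 0.35 and called (adjusted p = 0.0011).

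JUN, the strongest activator of its family, was not called in any line in the fit over all libraries. It lies at chr1:58780788-58784327 on the minus strand. In Molm-14 it was at 23.2, 25.8 and 26.9 CPM with DMSO and at 16.3, 22.4 and 16.5 CPM with RMC-4550. The treated libraries were all below the controls, with a log2 change of -0.47 (95% confidence interval -0.92 to -0.03, adjusted p = 0.076). Without replicate 2 of RMC-4550 the change was -0.62 and called (adjusted p = 0.034). JUN was also called in Molm-14 with the line fitted alone and with a covariate for the mitochondrial share. It was not called there with log2(CPM + 1), without a filter, with median-ratio scaling, with the replicate block or with voom weights. In MV4-11 the log2 change was -0.25 (-0.70 to 0.19), and in SKNO-1 it was -0.14 (-0.59 to 0.30). JUN made up 1.91% of the summed JUN family level per length in Molm-14 with DMSO and 0.935% with RMC-4550. JUND took 65.3% to 74.6% of that sum over the 6 groups.

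EGR1, which held 96.1% to 97.9% of the summed EGR family level per length, fell in Molm-14. EGR1 is known as a target of ERK through SRF and the ternary complex factors. Its upstream window of 250 bases, with 2 CArG boxes, is printed above. The gene lies at chr5:138465490-138469315 on the plus strand. In Molm-14 it was at 85.2, 96.4 and 92.3 CPM with DMSO and at 73.2, 44.6 and 68.2 CPM with RMC-4550. The groups did not overlap, and the lowest library was replicate 2 of RMC-4550. The level was 1.504-fold lower (log2 change -0.59, SE 0.16, adjusted p = 0.0065), and without the 4 libraries over 10% mitochondrial reads the change was -0.37 and called.

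In SKNO-1, EGR1 was at 84.5, 96.1 and 89.2 CPM with DMSO and at 67.7, 83.6 and 73.3 CPM with RMC-4550. All treated libraries lay below all controls, but the log2 change of -0.27 was not called (95% confidence interval -0.60 to 0.07, adjusted p = 0.24). In the fit without the libraries over 10% mitochondrial reads, none of which was from SKNO-1, the same change was called (adjusted p = 0.0067). In MV4-11 the EGR1 libraries ran from 108 to 144 CPM with DMSO and from 97.8 to 123 CPM with RMC-4550 and overlapped, with a log2 change of -0.21 (-0.55 to 0.13). It was -0.31 within the libraries under 10% mitochondrial reads and -0.28 within those over 10%, and EGR1 was called there with a covariate for the mitochondrial share (adjusted p = 0.0012).

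EGR3 fell in SKNO-1, by more than any other member in any line. EGR3 is an EGR family factor known from activated lymphocytes and from muscle. With DMSO its level was 2.08, 2.20 and 2.35 CPM, which is 45, 48 and 50 reads. With RMC-4550 it was 0.463, 0.371 and 0.368 CPM, which is 10, 8 and 8 reads. The level was 5.29-fold lower (log2 change -2.40, SE 0.29), and the groups lay far apart. EGR3 passed the filter in SKNO-1 only through its DMSO libraries, so the filter fixed the direction of any call there. Without a filter on low values the adjusted p was 4.4e-05. On the log2(CPM + 1) scale the EGR3 change was -1.20. In MV4-11 it was at 1.51, 2.10 and 1.44 CPM with DMSO and at 1.32, 1.82 and 2.39 CPM with RMC-4550. These groups overlapped (log2 change 0.11, 95% confidence interval -0.51 to 0.73). In Molm-14 it had 8 to 10 reads with DMSO and 3 to 8 with RMC-4550 and was not tested. Its gene model shares 164 exon bases with an antisense gene that had 0.00565 CPM on average, and no other member shared exon bases with another gene.

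EGR2, which is known for driving macrophage genes, was not called in any line in the fit over all libraries. It lies at chr10:62811996-62919900 on the minus strand and had 17 to 51 reads per library. In MV4-11 it was at 2.15, 2.61 and 2.33 CPM with DMSO and at 1.48, 1.67 and 1.52 CPM with RMC-4550. The groups did not overlap, and the log2 change was -0.59 (95% confidence interval -1.05 to -0.13, adjusted p = 0.086). It was called with log2(CPM + 1) (adjusted p = 0.032) and with a covariate for the mitochondrial share (0.034). Without the libraries over 10% mitochondrial reads, which leaves 1 MV4-11 library with DMSO, the EGR2 change was -0.70. In Molm-14 the log2 change was 0.29 (-0.17 to 0.75), and in SKNO-1 it was 0.21 (-0.25 to 0.67).

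Counted together, 5 of the 9 members tested in Molm-14 were called, against 46.7% of all genes tested there. Of these, 3 rose (FOS, JUNB and JUND) against 21.5% of all genes called higher, and 2 fell (FOSL1 and EGR1) against 25.2% called lower. In MV4-11, 1 of 10 was called, which was FOSL1 as a fall, against 13.9% of all genes in either direction, 5.85% higher and 8.03% lower. The calls in SKNO-1 were 3 of 10, with FOS higher and FOSL1 and EGR3 lower, against 27.1% of all genes, 10.8% higher and 16.2% lower. Without EGR3, whose filter fixed its direction, 2 were called. Of all calls in SKNO-1, 40.0% were higher, and 50.4% with median-ratio scaling. The groups did not overlap for 7 of the 9 members in Molm-14 (60% of all genes), 1 of 10 in MV4-11 (24.6%) and 6 of 10 in SKNO-1 (62%). The shares of members called were near the background in each line. The members had a median log2 change of 0.22 in Molm-14 (-0.06 over all genes tested), -0.12 in MV4-11 (-0.01) and -0.04 in SKNO-1 (-0.05). Without the 4 libraries over 10% mitochondrial reads, 5 members were called in SKNO-1 (53.3% of all genes in that fit), 3 in MV4-11 (26.9%) and 7 in Molm-14 (59%).

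**Figure D3:**
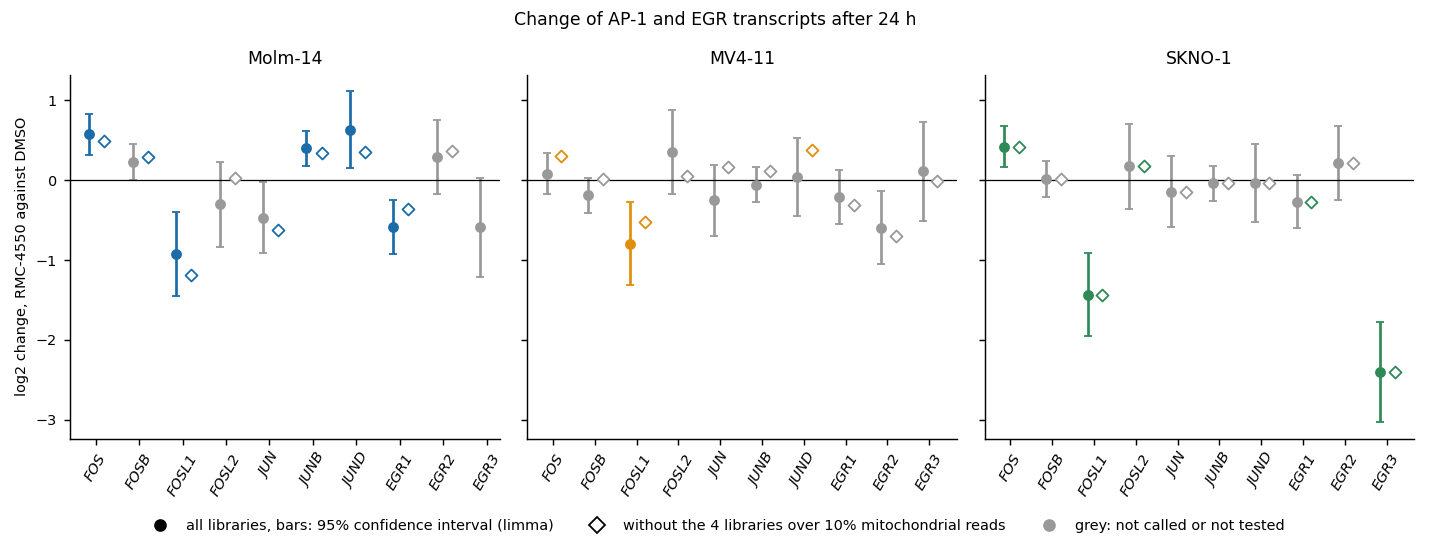
Log2 change with RMC-4550 against DMSO for each member in each line; circles with bars are the limma change over all libraries with its 95% confidence interval, diamonds leave out the 4 libraries over 10% mitochondrial reads, and grey marks changes not called or not tested. FOSL1 is below 0 in each line (-0.92, -0.79 and -1.43), and EGR3 in SKNO-1 (-2.40) is the lowest point.

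Whether the responses differed between lines was tested as a difference of the changes. Between SKNO-1 and the mean of the FLT3-ITD lines, EGR3 was the 1 member called (log2 difference -2.16, SE 0.36, adjusted p = 0.0028), against 3.34% of all genes in either direction and 2.16% lower. That mean includes the few EGR3 reads of Molm-14, and the difference was -1.15 on the log2(CPM + 1) scale. FOSL1 did not pass the test there (log2 difference -0.57, 95% confidence interval -1.21 to 0.07, adjusted p = 0.43). Between MV4-11 and Molm-14, JUNB was the 1 member called (-0.45, SE 0.15, adjusted p = 0.045), against 17.2% of all genes in either direction and 9.42% lower. FOS (-0.49, adjusted p = 0.056), EGR2 (-0.88, adjusted p = 0.058) and FOSB (-0.41, adjusted p = 0.063) lay just outside the threshold. The JUNB call was lost in 9 of the 12 fits that left out 1 library of these lines, with a log2 difference of -0.36 to -0.48 in those 9, and it was -0.23 without the libraries over 10% mitochondrial reads. It was also lost with median-ratio scaling (adjusted p = 0.051), without a filter (0.11) and with the replicate number as a block (0.058).

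Within groups, 9 of the 10 members moved with the mitochondrial share. Each of the 4 libraries over 10% mitochondrial reads was set against the libraries of its own group under 10%. For MV4-11 with DMSO that was 1 library. In each of the 4, FOS, FOSL1, JUN, JUNB and JUND were above those libraries. FOSL2, EGR1, EGR2 and EGR3 were below those libraries in each of the 4. FOSB did neither. Over all genes in the fit, 25.7% were above in all 4 and 31.6% were below in all 4. The part of the mitochondrial share in these levels was not tested beyond the fits given with and without the libraries.

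**Figure D4:**
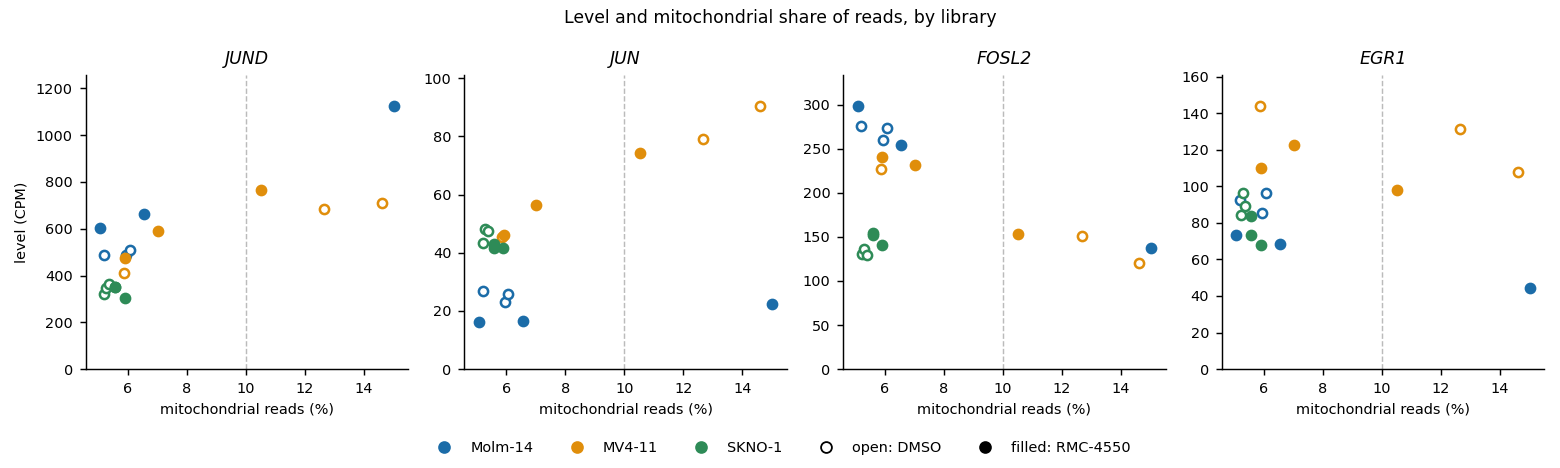
Level in CPM of JUND, JUN, FOSL2 and EGR1 in each of the 18 libraries against the mitochondrial share of reads in percent, with lines in colour, open points for DMSO and filled points for RMC-4550; the dashed line is at 10%. The 4 libraries to its right are high for JUND and JUN and low for FOSL2 and EGR1 among the libraries of their own groups, with the highest JUND level at 1124 CPM.

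For this and the following lists, the share of all genes called lower was 25.2% (21.5% higher) in Molm-14, 16.2% (10.8% higher) in SKNO-1 and 8.03% (5.85% higher) in MV4-11. Of 8 other basic leucine zipper genes that can pair in AP-1, 5 of the 7 tested in Molm-14 fell while 0 rose. BATF3, a factor of the BATF family that pairs with JUN proteins, fell in Molm-14 (10.7 and 2.85 CPM, log2 change -1.90, adjusted p = 3.0e-05) and in MV4-11 (7.04 and 3.54 CPM, adjusted p = 0.018). CREB5 (-1.03), the JUN dimerisation protein JDP2 (-0.74), the stress-induced ATF3 (-0.64) and ATF2 (-0.32) were the other falls in Molm-14. BATF2 rose in MV4-11 (1.82 and 7.22 CPM, log2 change 2.01, adjusted p = 4.9e-05) and in SKNO-1 (5.78 and 11.1 CPM, log2 change 0.93, adjusted p = 0.011). In MV4-11 1 of 8 rose and 1 fell, and in SKNO-1 1 of 7 rose and 0 fell. The median log2 change of the list was 0.14 in SKNO-1, 0.06 in MV4-11 and -0.64 in Molm-14.

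Among EGR relatives and co-repressors, NAB2 fell in all 3 lines. NAB2 encodes a co-repressor of EGR proteins and is itself known as an EGR target. Its log2 change was -0.52 in Molm-14 (30.1 CPM with DMSO, adjusted p = 0.00047), -0.89 in MV4-11 (42.6 and 22.9 CPM, adjusted p = 1.8e-05) and -0.56 in SKNO-1 (28.7 and 19.4 CPM, adjusted p = 0.00046). WT1, a zinc finger factor with an EGR-like recognition site that is often high in acute leukaemia, fell in Molm-14 (-1.34) and SKNO-1 (-1.24). In MV4-11 its change was -0.53 (adjusted p = 0.083). Of the 3 genes tested per line, 2 fell in SKNO-1, 1 in MV4-11 and 2 in Molm-14, and 0 rose. NAB1 had log2 changes of -0.15, -0.22 and -0.19 and was not called.

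Of the 6 genes for SRF, the ternary complex factors and the MRTF co-activators, SRF (log2 change -0.68, adjusted p = 0.0062) and ELK1 (-0.55, adjusted p = 0.028) fell in Molm-14. Elsewhere 0 of 6 were called by limma or with voom weights, and 1 in each of the other lines had an unadjusted p under 0.05. Of 10 kinases and ubiquitin ligases that act on FOS and JUN proteins, 1 rose and 3 fell in Molm-14, where 46.7% of all genes were called. The JNK kinases MAPK9 (-0.78) and MAPK8 (-0.23) and the ligase COP1 (-0.21) were the falls, and MAP2K7 (0.26), which activates JNK, was the rise. In MV4-11 RPS6KA1 (-0.31) fell, the kinase RSK1 downstream of ERK. In SKNO-1 0 of the 10 were called by limma or with voom weights, and 2 had an unadjusted p under 0.05.

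Genes known as AP-1 or EGR1 targets moved in both directions. Of 11 tested, 5 rose and 1 fell in Molm-14, 4 rose and 2 fell in MV4-11, and 2 rose and 1 fell in SKNO-1. PLAUR, the urokinase receptor, fell in each line, with log2 changes of -0.79 in Molm-14 (67.3 to 38.9 CPM), -0.80 in MV4-11 (87.4 to 50.2 CPM) and -0.83 in SKNO-1 (69.4 to 39.0 CPM). HMOX1, haem oxygenase, rose in each line, with log2 changes of 2.24 (7.01 to 33.2 CPM), 1.37 (4.39 to 11.4 CPM) and 1.23 (3.99 to 9.34 CPM) in the same order. HMOX1 is also a well known target of NRF2. TGFB1 rose in Molm-14 (0.59) and MV4-11 (0.56).

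Other immediate early genes moved in both directions in Molm-14. Of 11 tested, DUSP1 (log2 change 0.54), ZFP36 (0.28) and KLF6 (0.55) rose there, and MYC (-1.71, adjusted p = 0.0049), NR4A1 (-1.23, adjusted p = 9.9e-05) and ATF3 (-0.64) fell. In SKNO-1 KLF4 rose (0.58) and IER3 fell (-0.78). In MV4-11 0 of 11 were called by limma or with voom weights, and 3 had an unadjusted p under 0.05. Among heat shock genes, 3 of 4 tested fell in Molm-14 (25.2% of all genes), 2 of 5 fell in SKNO-1 (16.2%), and 0 of 5 were called in MV4-11 by limma or with voom weights, where 1 had an unadjusted p under 0.05. HSPH1 was the gene that fell in both lines, with log2 changes of -1.53 and -0.87.

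The log2 changes of single list genes above rest on all libraries, and some varied widely within a group. In Molm-14 with RMC-4550, MYC had 536 to 2310 reads per library, SRF 872 to 1819, MAPK9 420 to 928 and HSPH1 833 to 1633. The list counts above moved with the libraries over 10% mitochondrial reads. Without those libraries, 2 of the kinases and ligases rose and 8 fell in Molm-14, 5 fell in MV4-11, and in SKNO-1 1 rose and 5 fell. In MV4-11, 2 EGR relatives and co-repressors fell, 1 gene of the SRF list fell and 1 immediate early gene rose. The immediate early genes in SKNO-1 went from 1 higher and 1 lower to 4 higher and 3 lower, the targets there from 2 and 1 to 5 and 3, and the AP-1 partners there from 1 and 0 to 3 and 1. The SRF list in SKNO-1 went from 0 to 1 higher and 3 lower, and the heat shock list from 2 to 5 lower there and from 0 to 3 lower in MV4-11. Calls over all genes rose in the same fit too. They went from 2997 higher and 3525 lower to 3863 and 4373 in Molm-14, from 862 and 1183 to 1300 and 2663 in MV4-11, and from 1588 and 2381 to 3110 and 4708 in SKNO-1.

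The genes whose pattern over the 6 group means was most like that of a member were ranked by the root mean square difference of log2 values, each centred on its own mean, among 11014 genes with a mean of at least 5 CPM. For EGR1 the nearest was MARCKSL1, at 0.06. For FOS it was ZC3H12D (0.08), for JUNB AKAP8 (0.07) and for JUND MIDN (0.09). For FOSL1 it was the nucleoside diphosphate kinase gene NME1 (0.13), followed by MSH5 (0.14). FOSL2 had ZNF416 (0.07) and TXNIP (0.08) among its 3 nearest, EGR2 had NXF3 (0.08) and the mitochondrial MT-RNR1 (0.08), FOSB had CAPN5 (0.16) and JUN had CBR1 (0.15). EGR3 had no near neighbour, with VPS9D1-AS1 the closest at 0.58. The values rest on 6 group means and carry no test.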

How the data were processed

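RNA from 18 cultures was purified on oligo(dT) beads and sequenced as DNA nanoballs after PCR without molecular identifiers, per the labels' protocols. FastQC, STAR, limma and the genome build GRCh38 are named in the submitters' processing notes, without versions. The counter, annotation and strand setting are not given in the sources used here. The authors deposited log2 values for 40184 gene IDs, of which 40069 matched a symbol. Judging by the numbers themselves, 0.5 had been added to a gene's reads before division by a scaled library size and the log2 step. Undoing this gave whole reads (within 0.02) for 100% of the values under 200 reads in every library. The scaling factors ran from 0.890 to 1.11. CPM and reads were computed from these values. Counting error alone limits genes with few reads, and reads are not independent molecules.

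The log2 values of 16262 genes that reached 1 CPM in 3 or more samples were fitted with limma 3.58.1 in R 4.3.3 (lmFit, eBayes with a trend, two-sided), with 1 coefficient for each of the 6 groups. A contrast tested a gene only if 3 or more samples of the lines compared reached 1 CPM. Within each of 8 contrasts, Benjamini-Hochberg adjustment covered all genes tested, and values under 0.05 were calls. The procedure was tested on simulated data. Python 3.11.15 with matplotlib 3.10.9 drew the figures.

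All 10 members were named, and up to 4 genes of each other list called in the most lines, ties broken by the largest change. A gene that this rule names is not reported here. ATF2, NAB1, COP1, DUSP1, ZFP36, KLF4 and KLF6 were named after their values were seen, to complete counts. The members and lists were chosen with earlier results of these data known. Alternatives were log2(CPM + 1), no filter on low values, median-ratio scaling, fitting each line alone, blocking on the replicate number, voom weights, the mitochondrial share as a covariate, leaving out the 4 libraries over 10% mitochondrial reads, and leaving out each library in turn. The filter was read from all 18 libraries in each of these fits except the one without a filter. A test on counts was not run, since the deposited unit is log2.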

Additional observations from a re-analysis of the deposited data

Results flagged for a closer look

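The response of EGR3 differed between lines. With RMC-4550 its log2 change was -2.40 in SKNO-1, 0.11 in MV4-11 and -0.59 in Molm-14, where it had 3 to 10 reads per library. The change in SKNO-1 minus the mean of the other lines was -2.16 (SE 0.36, adjusted p = 0.0028 in limma) and -1.15 on the log2(CPM + 1) scale, and all 3 treated SKNO-1 libraries were below all 3 controls. It was called in each fit that left out 1 library. SKNO-1 alone received GM-CSF, so line, genotype and growth factor cannot be told apart.

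The response of JUNB differed between the FLT3-ITD lines. The log2 change of JUNB was 0.40 in Molm-14 and -0.06 in MV4-11, and the difference was -0.451 (SE 0.15, adjusted p = 0.045 in limma). Without the libraries over 10% mitochondrial reads, which leaves 1 MV4-11 library with DMSO, the difference was -0.23. The part of the mitochondrial share in it was not tested further.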

How the results depend on the processing

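The calls of FOS, FOSL1, JUNB and EGR1 in Molm-14 and of FOSL1 in SKNO-1 were made under each alternative run. The number of members called with RMC-4550 in MV4-11 was 1. It was 2 with log2(CPM + 1), 0 without a filter, 0 with median-ratio scaling, 0 with each line fitted alone, 0 with the replicate block, 5 with the mitochondrial covariate, 3 without the libraries over 10% mitochondrial reads, and 0 to 2 with 1 library left out. In SKNO-1 it was 3, and it was 5 with each line fitted alone, 5 with the covariate, 5 without those libraries, and 2 to 3 with 1 library left out. In Molm-14 the 5 calls became 4 to 6 with 1 library left out. With DMSO, the 8 differences between SKNO-1 and MV4-11 became 5 with the covariate and 3 to 7 with 1 library left out. The 7 between MV4-11 and Molm-14 and the 7 between SKNO-1 and Molm-14 each became 5 to 7 with 1 library left out, and 7 to 8 and 6 to 9 under the other alternatives. The 1 differing response of SKNO-1 became 4 with the covariate. The 1 differing response between MV4-11 and Molm-14 became 2 with log2(CPM + 1), 0 without a filter, 0 with median-ratio scaling, 0 with the replicate block, 2 with voom weights, 4 with the covariate and 0 to 5 with 1 library left out. Counts over all genes in several of these fits are given below. They are not given for the fits with 1 library left out, so those counts of members have no background. The cause was not tested.

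Same-numbered libraries of a line deviated from their group means with r from -0.40 to 0.59, and 3 of 9 pairs were over 0.1, so the numbers were not taken to pair the samples. With the replicate block, the calls of JUND in Molm-14 (adjusted p = 0.052), of FOSL1 in MV4-11 (0.069), of JUN between SKNO-1 and MV4-11 (0.055) and of the JUNB difference in response (0.058) were lost.

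The changes that turned sign were of members not called, except JUN between SKNO-1 and MV4-11. With RMC-4550 they were FOSL2 in Molm-14 (0.040 with the covariate, 0.030 without the libraries over 10%, -0.53 to 0.030 with 1 library left out). In MV4-11, the covariate turned FOSL2 (-0.0044), JUN (0.012), JUNB (0.050) and EGR3 (-0.18), and leaving out those libraries turned FOSB (0.0081), JUN (0.16), JUNB (0.11) and EGR3 (-0.0082). With 1 library left out, FOS ran from -0.069 to 0.17 there, JUNB from -0.17 to 0.037, JUND from -0.22 to 0.20 and EGR3 from -0.094 to 0.33. In SKNO-1, FOSB ran from -0.069 to 0.077, JUNB from -0.072 to 0.0031, JUND from -0.084 to 0.040 and EGR2 from -0.0080 to 0.39, and median-ratio scaling turned JUNB (0.025) and JUND (0.030). With DMSO, the covariate and the left-out libraries turned FOSL1 (-0.10 and -0.089) and JUND (-0.28 and -0.27) between MV4-11 and Molm-14. EGR1 between SKNO-1 and Molm-14 was 0.027 with median-ratio scaling and ran from -0.071 to 0.022 with 1 library left out. Between SKNO-1 and MV4-11, EGR3 was -0.11 with the covariate, and JUN was 0.028 without those libraries. The difference in response between MV4-11 and Molm-14 ran from -0.11 to 0.40 for FOSL1 and from -0.080 to 0.41 for JUN with 1 library left out. For FOSL2 it was -0.044 with the covariate, and for JUND it was 0.025 with the covariate and 0.019 without those libraries.

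Over all genes, fitting each line alone gave 326 higher and 345 lower calls in MV4-11 (862 and 1183 in the joint fit) and 3453 and 4756 in SKNO-1 (1588 and 2381). With the covariate these were 1788 and 3266 in MV4-11 and 2937 and 4333 in SKNO-1. In MV4-11 they were 1102 and 1358 with log2(CPM + 1) and 612 and 815 without a filter. There median-ratio scaling gave 1018 and 944, and the replicate block gave 712 and 1022. Between SKNO-1 and MV4-11 with DMSO, 3011 genes were called higher and 3438 lower, and 2711 and 4163 with the covariate. Between MV4-11 and Molm-14 the counts went from 4021 and 4248 to 4524 and 4257 with the covariate. Between SKNO-1 and Molm-14 they went from 5140 and 5143 to 6102 and 6376. The differing responses of SKNO-1 went from 191 higher and 352 lower to 971 and 1560 with the covariate. Those between MV4-11 and Molm-14 went from 1206 and 1460 to 1359 and 1717 with the covariate. They were 824 and 924 without a filter, 1293 and 1428 with median-ratio scaling, and 911 and 1089 with the replicate block. Voom weights gave 1235 and 1367 there, and log2(CPM + 1) gave 1452 and 1601. Median-ratio scaling moved the share of higher calls with RMC-4550 in SKNO-1 from 40.0% to 50.4%. EGR2 and EGR3, with 3 to 51 reads per library, are the members limited most by depth.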
